A study of Homo sapiens with 6 samples.

Results

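The genes described here are those of mitosis, the kinetochore and the centrosome, with the kinesin motor proteins, in SH-SY5Y cells given methamphetamine (METH). They were chosen by name alone from a deposited table of 4101 genes. The rule took symbols of the families AURKA and AURKB, BUB, CCNA and CCNB, CDC20 and CDC25, CDCA, CENP, CEP, KIF and KIFC, NCAP, NEK, PLK, SKA, SMC and SPC2, together with ASPM, BIRC5, DLGAP5, ECT2, ESPL1, FAM83D, HMMR, KNL1, MKI67, NDC80, NUF2, PRC1, TOP2A and TPX2, and it left out antisense genes. It found 104 members of the 4101 genes. The GENCODE 29 annotation has 180 protein-coding genes with such names, so the other members of these families have no value here; TTK and PTTG1, which the rule also names, are among them. All members were kept without a filter on low values, and 102 of the 104 reached a mean of 1 CPM (the read count scaled to a fixed library total) in either group.

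SH-SY5Y is an established human neuroblastoma line with features of dopaminergic neurons, labelled as wild type. The METH group had 2 mM METH in the medium for 24 h and the PBS group had phosphate-buffered saline, with 3 RNA-seq libraries in each. All 6 carry the same label for the time, Day 0. The libraries come from a single line, and the study describes its sequencing as done in triplicate without saying whether the 3 libraries of a group were grown as separate cultures, so the p-values measure the spread between these libraries, which may be technical. Following the numbers of the columns, the names used are PBS 10, PBS 11 and PBS 12, and METH 1, METH 2 and METH 3. Values below are always given in that order.

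The values are CPM, and 20027076 to 25449501 reads of each library fell on the genes of the table. METH 3 stood apart in that the table's genes held 192856 CPM there, against 229751 to 243343 CPM in the other 5 libraries. Every gene of the table had an unadjusted p under 0.1 in the authors' own test of the same comparison. A large share of the table is therefore called in either direction, and each count of members is read against that share. Differences were tested with limma after adding 0.1 to each CPM value and taking log2. P-values were adjusted over the 4101 genes by the Benjamini-Hochberg method, and a gene was called where the adjusted p was under 0.1. A log2 fold change below is METH minus PBS on that scale, with its standard error (SE), and it understates the change of genes near 0.1 CPM. Gene positions are those of GENCODE 29 on GRCh38. Because the data are of bulk RNA, fewer cells in mitosis and less of each RNA per cell cannot be told apart.

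A dividing cell condenses its chromosomes with condensin, holds sister chromatids together with cohesin, and builds a kinetochore on each centromere. Microtubules from the centrosomes, moved and cross-linked by kinesins, attach to the kinetochores, and a checkpoint holds back the anaphase-promoting complex until all are attached. Many of these genes are transcribed in G2 and mitosis, and their promoters often hold CCAAT boxes, bound by the factor NF-Y, and a cell cycle genes homology region (CHR), bound by the DREAM and MMB complexes.

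Of the 104 members, 84 were lower with METH, 5 were higher and 15 were not called by limma at an adjusted p under 0.1. The members called lower were 80.8% of all members, against 35.8% of the table, and the members called higher were set against 33.3% of the table. The log2 fold change was below 0 in 93 members. Its median over the members was -0.90, with a range from -1.67 for KIF4A to 1.35 for CEP85L, and its median over the table was 0.11. In 76 members every METH library was below every PBS library, which held for 33.0% of the table, and in 5 every METH library was above, which held for 31.0% of the table. The authors' p-values imply that 15724 genes were tested. When the adjustment covered all of them, 29 members were called lower, where 7.49% of the table was, and 2 were called higher, where 7.71% of the table was. Leaving out METH 1 left 53 members called lower, where 15.3% of the table was, and leaving out METH 2 left 44, where 13.7% of the table was. Across all 6 fits without a library, 41 members were called lower every time and 2 higher every time. The same held for 432 and 369 of the 4101 genes of the table.

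**Figure D1:**
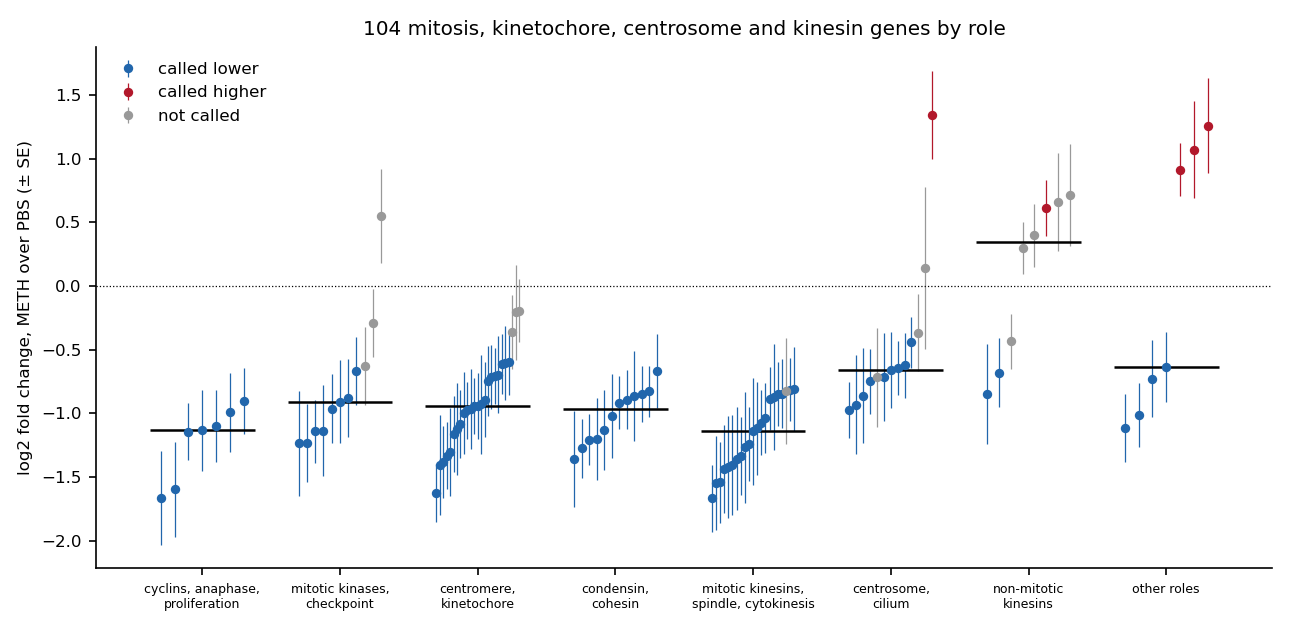
Log2 fold change of each of the 104 members (points, METH over PBS on log2(CPM + 0.1), bars are the SE), grouped by role, with the median of each group as a black line. Nearly all members of the 5 chromosome and spindle groups at the left lie below 0, whereas 5 of the 8 non-mitotic kinesins lie above it.

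Because so many members were lower together, the letters in their promoters were examined. RefSeq promoter windows of 300 bases on GRCh38.p14, from 250 bases before to 50 bases after the start site, matched 86 of the 104 members. Where a gene of the table had several windows, only the first listed was used, while the count of all windows kept every one. The CHR was searched as TTTGAA or TTCGAA and the CCAAT box as CCAAT, both on both strands. The CHR letters were in 45 of the 71 windows of members called lower (63.4%), in 7 of the 15 windows of the other members (46.7%), and in 5742 of all 35116 promoter windows (16.4%). Among the table's genes that are not members, they were in 14.2% of the windows of genes called lower and in 10.4% of those called higher. CCAAT was in 66.2% of the windows of members called lower, in 42.4% of those of the table's other genes called lower and in 34.6% of all windows, and both motifs were in 45.1%, 8.12% and 6.38%. Of the 56 CHR matches in members called lower, 57.1% began between 60 bases before and 10 bases after the start site, against 20.6% of the matches in all windows. The share was 42.9% of the 7 matches in the other members and 28.2% in the table's other genes called lower. The E2F letters TTTCGCGC, TTTGGCGC, TTTCCCGC and TTTGCCGC were found, on either strand, in 9.86% of the windows of members called lower, in 9.76% of those of the table's other genes called lower and in 3.31% of all windows. A match is a run of letters and shows no binding.

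**Figure D2:**
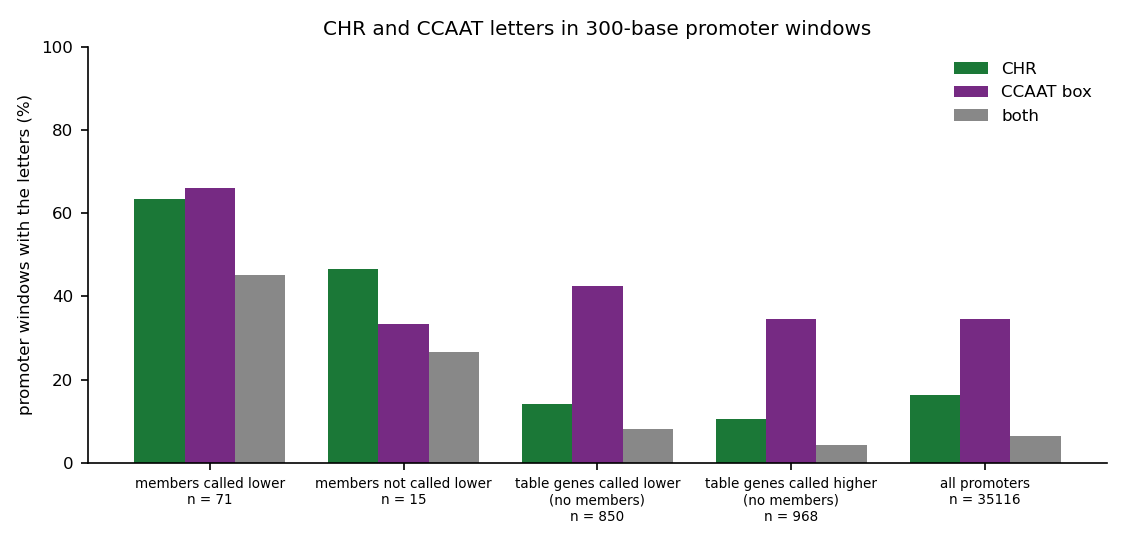
Share of promoter windows of 300 bases with the CHR letters (green), with CCAAT (purple) and with both (grey), in percent, for members called lower, other members, genes of the table called lower or higher that are not members, and all promoters. The CHR letters were in 63.4% of the windows of members called lower and in 16.4% of all windows.

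The 8 windows below run from 150 bases before to 20 bases after the RefSeq start, 5′ to 3′ on the strand of the gene. They show 6 members that were lower and hold both motifs (CCNB2, PLK1, CDC20, MKI67, KIF4A and BUB1), CCNB1, which was lower and holds 2 CCAAT boxes and neither CHR spelling, and PLK2, which was higher and holds neither motif. They were picked to show these cases, and they do not stand for all members. Of the 71 members called lower with a 300-base window, 11 held neither motif, among them CENPE, CENPI, KIF2C and CDC25C. The RefSeq start used for CENPI lies inside the gene as placed by GENCODE 29, so its window may miss another start site. Of the 5 called higher, PLK2, PLK3 and KIF3C held neither, CEP85L held a CHR and BUB1B-PAK6 held both. Capitals mark the CHR letters and CCAAT, which reads ATTGG on the other strand. In MKI67 the CHR at 29 bases before the start overlaps an ATTGG by 1 base.
CCNB2 (chr15:59104996-59105165, plus strand): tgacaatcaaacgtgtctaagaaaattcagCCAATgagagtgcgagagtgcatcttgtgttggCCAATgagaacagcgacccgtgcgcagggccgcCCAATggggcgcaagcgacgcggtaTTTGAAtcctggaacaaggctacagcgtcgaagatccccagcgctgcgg
PLK1 (chr16:23678739-23678908, plus strand): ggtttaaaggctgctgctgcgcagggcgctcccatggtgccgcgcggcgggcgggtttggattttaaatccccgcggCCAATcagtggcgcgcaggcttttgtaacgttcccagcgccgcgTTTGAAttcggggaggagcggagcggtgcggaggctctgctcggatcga
CDC20 (chr1:43358831-43359000, plus strand): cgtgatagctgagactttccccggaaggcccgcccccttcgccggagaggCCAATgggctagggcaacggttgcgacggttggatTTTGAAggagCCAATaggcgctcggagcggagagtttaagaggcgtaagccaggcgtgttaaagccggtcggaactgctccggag
MKI67 (chr10:128126404-128126573, minus strand): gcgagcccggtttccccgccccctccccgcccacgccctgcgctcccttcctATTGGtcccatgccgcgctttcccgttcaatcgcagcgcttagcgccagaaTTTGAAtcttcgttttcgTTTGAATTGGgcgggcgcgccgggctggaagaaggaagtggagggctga
KIF4A (chrX:70289954-70290123, plus strand): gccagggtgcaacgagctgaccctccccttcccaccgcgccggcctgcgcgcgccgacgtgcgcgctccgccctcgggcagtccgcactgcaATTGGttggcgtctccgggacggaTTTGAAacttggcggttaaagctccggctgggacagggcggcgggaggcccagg
BUB1 (chr2:110678044-110678213, minus strand): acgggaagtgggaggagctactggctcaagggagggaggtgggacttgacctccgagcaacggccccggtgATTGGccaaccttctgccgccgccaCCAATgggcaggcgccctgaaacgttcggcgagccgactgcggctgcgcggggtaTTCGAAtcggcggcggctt
CCNB1 (chr5:69167000-69167169, plus strand): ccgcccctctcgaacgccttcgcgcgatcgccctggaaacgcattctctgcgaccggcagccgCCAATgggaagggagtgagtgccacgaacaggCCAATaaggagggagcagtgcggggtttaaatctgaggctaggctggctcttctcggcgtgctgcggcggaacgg
PLK2 (chr5:58460067-58460236, minus strand): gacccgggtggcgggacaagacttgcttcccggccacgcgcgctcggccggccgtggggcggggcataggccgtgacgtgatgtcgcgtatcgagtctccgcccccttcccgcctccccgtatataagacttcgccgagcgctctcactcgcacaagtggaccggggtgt
The CHR began 29 bases before the start in CCNB2 and PLK1 and 34 bases before it in KIF4A. The CCAAT boxes of these windows lay upstream of the CHR except in CDC20 and MKI67, where a CCAAT box also followed it.

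All 7 members among the cyclins, anaphase regulators and proliferation markers were lower, where 35.8% of the table was. Their median log2 fold change was -1.13. In all 7 every METH library was below every PBS library, which held for 33.0% of the table. Adjusted over all tested genes, 4 of the 7 were lower, where 7.49% of the table was. MKI67 (ENSG00000148773, chr10:128096659-128126385) encodes Ki-67, the coat protein of mitotic chromosomes used to count dividing cells. MKI67 was at 31.04, 9.89 and 20.3 CPM with PBS and 6.38, 5.64 and 6.08 CPM with METH. The METH libraries lay close together while the PBS libraries spread widely, and MKI67 was 3.39-fold lower in the mean (log2 fold change -1.60 ± 0.37, limma adjusted p = 0.0197). ESPL1 (ENSG00000135476, chr12:53268299-53293643) encodes separase, the protease that cuts cohesin at anaphase. ESPL1 was at 18.9, 10.6 and 21.2 CPM with PBS and 5.26, 7.58 and 3.197 CPM with METH, the lowest library being METH 3 and the lowest PBS library PBS 11 (log2 fold change -1.67 ± 0.37, limma adjusted p = 0.0169). Cyclin B1, the partner of CDK1 at mitotic entry, is encoded by CCNB1 (ENSG00000134057, chr5:69167010-69178245). CCNB1 was at 87.8, 42.1 and 95.4 CPM with PBS and 39.4, 30.6 and 27.6 CPM with METH, so that PBS 11 came within 3 CPM of METH 1 (log2 fold change -1.13 ± 0.32, limma adjusted p = 0.0301). Its paralogue CCNB2 (ENSG00000157456, chr15:59105078-59125045) was at 49.4, 30.5 and 36.1 CPM with PBS and 18.3, 17.2 and 15.9 CPM with METH and was lower in each METH library than in each PBS library (log2 fold change -1.14 ± 0.23, limma adjusted p = 0.0124). CCNA2 (ENSG00000145386, chr4:121816444-121823933) encodes cyclin A2, which acts in S phase and early mitosis. CCNA2 was at 27.98, 12.99 and 17.7 CPM with PBS and 8.46, 8.71 and 8.76 CPM with METH, with METH libraries nearly equal (log2 fold change -1.10 ± 0.28, limma adjusted p = 0.0248). CDC20 (ENSG00000117399, chr1:43358955-43363203) encodes the activator of the anaphase-promoting complex. CDC20 was at 69.9, 67.99 and 103 CPM with PBS and 55.3, 41.1 and 32.9 CPM with METH, a 1.87-fold lower mean (log2 fold change -0.90 ± 0.26, limma adjusted p = 0.0316). CDCA3, whose product helps degrade the CDK1 inhibitor WEE1, was lower by a log2 fold change of -0.99 ± 0.31. PBS 11 was the lowest PBS library for each of the 7 genes.

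**Figure D3:**
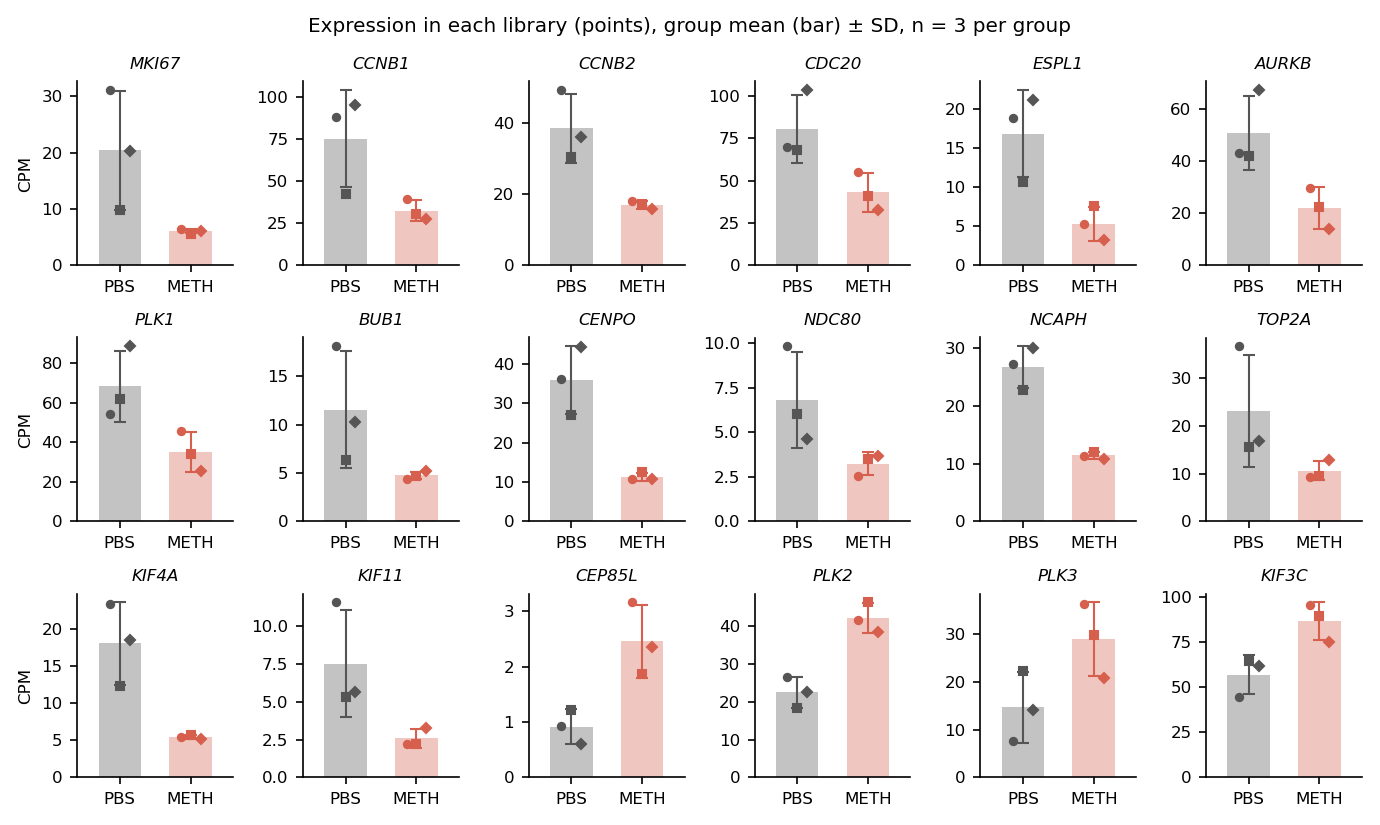
CPM of 18 members in each library, with the group mean (bar) ± SD, n = 3 per group. Circles are PBS 10 and METH 1, squares PBS 11 and METH 2, diamonds PBS 12 and METH 3; the first 14 genes were lower with METH and CEP85L, PLK2, PLK3 and KIF3C were higher.

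Of the 11 mitotic kinases, phosphatases and checkpoint genes, 8 were lower and 3 were not called (NEK6, PLK4 and NEK7), with a median of -0.91. The share lower in the table was 35.8%. Adjusted over all tested genes, 2 of the 11 were lower, where 7.49% of the table was. AURKB (ENSG00000178999, chr17:8204733-8210600) encodes the kinase of the chromosomal passenger complex, which corrects wrong attachments. AURKB was at 43.3, 42.02 and 67.3 CPM with PBS and 29.9, 22.3 and 14.03 CPM with METH, and no METH library reached the lowest PBS library (log2 fold change -1.23 ± 0.31, limma adjusted p = 0.0231). PLK1 (ENSG00000166851, chr16:23677656-23690367) encodes the kinase that drives centrosome maturation and mitotic entry, whose promoter is printed above. PLK1 was at 54.3, 61.8 and 88.5 CPM with PBS and 45.4, 34.2 and 25.7 CPM with METH, with METH 3 lowest and PBS 12 highest (log2 fold change -0.96 ± 0.27, limma adjusted p = 0.0304). AURKA (ENSG00000087586, chr20:56369389-56392337), the spindle pole kinase, was at 26.3, 11.2 and 23.5 CPM with PBS and 11.3, 10.6 and 8.67 CPM with METH. Here METH 1 was above PBS 11 by a small margin, so the groups overlapped (log2 fold change -0.91 ± 0.32, limma adjusted p = 0.0529). The checkpoint kinase gene BUB1 (ENSG00000169679, chr2:110637698-110678114) was at 18.1, 6.31 and 10.3 CPM with PBS and 4.44, 4.67 and 5.18 CPM with METH, and its partner BUB1B (ENSG00000156970, chr15:40161023-40221136), which encodes BUBR1, was at 28.8, 9.61 and 12.6 CPM with PBS and 4.31, 8.398 and 7.16 CPM with METH. Both were highest in PBS 10 (log2 fold change -1.14 ± 0.36, limma adjusted p = 0.0388 and -1.24 ± 0.41, limma adjusted p = 0.0455). CDC25A (ENSG00000164045, chr3:48157146-48188402) encodes a phosphatase that activates CDKs. CDC25A was at 19.9, 17.97 and 30.9 CPM with PBS and 10.4, 9.21 and 10.5 CPM with METH (log2 fold change -1.14 ± 0.25, limma adjusted p = 0.0161). Its relative CDC25C, which acts on CDK1, and NEK2, a centrosome kinase, had log2 fold changes of -0.67 ± 0.27 and -0.88 ± 0.31 and were called lower. PLK4, the master kinase of centriole duplication, was at 6.54, 4.503 and 3.87 CPM with PBS and 3.83, 3.81 and 4.21 CPM with METH. Its log2 fold change was -0.29 ± 0.27, with a 95% interval from -0.90 to 0.32, which includes both no change and a fall as large as that of NEK2. NEK7, at 3.81, 4.803 and 2.28 CPM with PBS and 3.91, 4.304 and 8.001 CPM with METH, had the only positive log2 fold change of this group (0.55 ± 0.37), and METH 3 was its highest library.

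Of the 25 members at the centromere and kinetochore, 22 were lower, none was higher and 3 were not called (CENPL, CENPP and CENPN), and the median was -0.94. All 4 genes of the NDC80 complex, the microtubule clamp of the outer kinetochore, were lower, as were all 3 SKA genes, whose products hold it on the microtubule end, and both complexes are complete in the table. These and the complexes below were picked out after their values were seen. With adjustment over all tested genes, 2 of the 4 NDC80 complex genes and 1 of the 3 SKA genes were lower, where 7.49% of the table was. SPC24 (ENSG00000161888, chr19:11131520-11155808), an NDC80 subunit, was at 19.9, 24.01 and 39.04 CPM with PBS and 11.7, 10.98 and 8.07 CPM with METH (log2 fold change -1.38 ± 0.29, limma adjusted p = 0.014). NDC80 (ENSG00000080986, chr18:2571511-2616635) itself was at 9.81, 6.01 and 4.59 CPM with PBS and 2.52, 3.51 and 3.68 CPM with METH (log2 fold change -0.997 ± 0.32, limma adjusted p = 0.0422). The other subunits differed in size, with a log2 fold change of -0.98 ± 0.23 for SPC25 and -0.60 ± 0.29 for NUF2, the latter at an adjusted p of 0.0997 by limma and with overlapping groups. KNL1 (ENSG00000137812, chr15:40594020-40664342), the scaffold that recruits BUB1 and BUBR1 to the outer kinetochore, was at 5.498, 3.87 and 1.99 CPM with PBS and 0.98, 1.28 and 1.58 CPM with METH (log2 fold change -1.41 ± 0.39, limma adjusted p = 0.0295). SKA3 was at 8.46, 6.47 and 5.93 CPM with PBS and 2.67, 3.16 and 2.24 CPM with METH, and each METH library was below each PBS library (log2 fold change -1.33 ± 0.26, limma adjusted p = 0.0123).

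At the inner kinetochore, the 16-subunit network that sits on centromeric chromatin had 11 genes in the table, of which 8 were lower. With adjustment over all tested genes, 2 of the 11 were lower, where 7.49% of the table was. CENPO (ENSG00000138092, chr2:24793136-24822376) belongs to this network. CENPO was at 36.3, 27.04 and 44.3 CPM with PBS and 10.7, 12.6 and 10.8 CPM with METH, so that even PBS 11, the lowest PBS library, lay far above METH 2 (log2 fold change -1.63 ± 0.23, limma adjusted p = 0.00476). CENPI had a log2 fold change of -1.30 ± 0.34, CENPM of -1.16 ± 0.30, and CENPK, CENPQ and CENPH of -0.69 ± 0.30, -0.74 ± 0.27 and -0.61 ± 0.24. The members of the network that were not called were CENPN at 20.5, 28.7 and 20.2 CPM with PBS and 25.9, 16.6 and 18.5 CPM with METH, CENPL and CENPP. CENPA, the histone H3 variant that marks centromeres, was lower in every METH library than in any PBS library, at 29.03, 34.1 and 39.3 CPM with PBS and 20.3, 18.3 and 14.6 CPM with METH (log2 fold change -0.94 ± 0.22, limma adjusted p = 0.0191). CENPF (ENSG00000117724, chr1:214603195-214664588), at 35.7, 12.2 and 19.8 CPM with PBS and 9.09, 7.96 and 11.4 CPM with METH, showed METH 3 just under PBS 11 (log2 fold change -1.12 ± 0.36, limma adjusted p = 0.0413). CENPE (ENSG00000138778, chr4:103105806-103198409), a kinesin that carries chromosomes to the spindle equator, was at 3.65, 1.797 and 1.52 CPM with PBS and 0.759, 1.28 and 1.32 CPM with METH and was called in 3 of the 6 fits without a library (log2 fold change -0.93 ± 0.39, limma adjusted p = 0.0748).

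All 4 genes of the chromosomal passenger complex were lower, namely AURKB, BIRC5, CDCA8 and INCENP, the last of which is not a member by name. With adjustment over all tested genes, 2 of the 4 (AURKB and CDCA8) were lower, where 7.49% of the table was. BIRC5 (ENSG00000089685, chr17:78214186-78225636) encodes survivin, which also inhibits apoptosis. BIRC5 was at 81.9, 69.2 and 131 CPM with PBS and 63.6, 49.004 and 31.9 CPM with METH, with METH 1 close to PBS 11 (log2 fold change -0.97 ± 0.32, limma adjusted p = 0.043). CDCA8, which encodes borealin, had a log2 fold change of -1.08 ± 0.27, and INCENP, the scaffold of the complex, of -0.64 ± 0.21.

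All 12 genes of condensin, cohesin and chromosome structure were lower, where 35.8% of the table was, with a median of -0.97. In 10 every METH library was below every PBS library, which held for 33.0% of the table. Adjusted over all tested genes, 6 of the 12 were lower, where 7.49% of the table was. The 8 genes of condensins I and II were complete in the table and all were lower, from -1.36 for SMC2 to -0.67 for NCAPH2. With adjustment over all tested genes, 4 of the 8 were lower, where 7.49% of the table was. SMC2 (ENSG00000136824, chr9:104094260-104141417), the ATPase core of both condensins, was at 8.78, 5.61 and 3.65 CPM with PBS and 1.84, 1.67 and 3.17 CPM with METH (log2 fold change -1.36 ± 0.38, limma adjusted p = 0.0294). METH 3 was the METH library nearest to PBS 12. NCAPH (ENSG00000121152, chr2:96335787-96373845), the closing subunit of condensin I, was at 27.2, 22.8 and 29.9 CPM with PBS and 11.3, 12.04 and 10.9 CPM with METH. Its METH libraries differed by little more than 1 CPM (log2 fold change -1.21 ± 0.20, limma adjusted p = 0.00841). The second ATPase, SMC4, had a log2 fold change of -1.13 ± 0.31, and NCAPG, NCAPD2, NCAPD3 and NCAPG2 lay between -0.85 and -0.91. In NCAPG and NCAPH2 the groups overlapped. TOP2A (ENSG00000131747, chr17:40388516-40417950) encodes the topoisomerase that untangles sister chromatids. TOP2A was at 36.8, 15.7 and 16.96 CPM with PBS and 9.29, 9.63 and 12.9 CPM with METH, with PBS 10 far above PBS 11 and PBS 12 (log2 fold change -1.02 ± 0.33, limma adjusted p = 0.0423). CDCA5 (ENSG00000146670, chr11:65066300-65084164) encodes sororin, which guards cohesin until anaphase. CDCA5 was at 39.4, 40.2 and 53.6 CPM with PBS and 22.4, 18.3 and 14.5 CPM with METH, and the highest METH library lay well below the lowest PBS library (log2 fold change -1.27 ± 0.23, limma adjusted p = 0.0099). Cohesin was represented by SMC1A (ENSG00000072501, chrX:53374149-53422728) alone, since SMC3, RAD21, STAG1 and STAG2 are not in the table. SMC1A was at 61.4, 45.6 and 50.8 CPM with PBS and 27.7, 27.8 and 32.9 CPM with METH (log2 fold change -0.83 ± 0.20, limma adjusted p = 0.0216). CDCA2, which recruits a phosphatase to chromatin at mitotic exit, had a log2 fold change of -1.20 ± 0.32.

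Of the 21 mitotic kinesins, spindle and cytokinesis genes, 20 were lower, with a median of -1.14, and KIF18A was not called. The share lower in the table was 35.8%. Adjusted over all tested genes, 7 of the 21 were lower, where 7.49% of the table was. KIF4A (ENSG00000090889, chrX:70290090-70420832) encodes a motor on chromosome arms and the central spindle. KIF4A was at 23.3, 12.3 and 18.4 CPM with PBS and 5.404, 5.69 and 5.16 CPM with METH, a 3.33-fold lower mean with all METH libraries near 5 CPM (log2 fold change -1.67 ± 0.27, limma adjusted p = 0.00774). KIF23 (ENSG00000137807, chr15:69414246-69448427), the motor of centralspindlin at the cleavage furrow, was at 12.04, 4.23 and 7.56 CPM with PBS and 2.17, 2.32 and 2.82 CPM with METH (log2 fold change -1.55 ± 0.37, limma adjusted p = 0.0208). Its partners RACGAP1, not a member by name, and ECT2, the exchange factor that starts furrowing, had log2 fold changes of -0.75 ± 0.28 and -0.87 ± 0.42, both called lower with overlapping groups. KIF11 (ENSG00000138160, chr10:92593286-92655395) encodes Eg5, which pushes the spindle poles apart. KIF11 was at 11.6, 5.31 and 5.68 CPM with PBS and 2.22, 2.23 and 3.27 CPM with METH (log2 fold change -1.44 ± 0.35, limma adjusted p = 0.021). FAM83D (ENSG00000101447, chr20:38926312-38953106), which brings casein kinase to the spindle, was at 22.8, 10.9 and 24.4 CPM with PBS and 5.58, 6.82 and 6.25 CPM with METH, and PBS 11 was again the lowest PBS library (log2 fold change -1.54 ± 0.32, limma adjusted p = 0.0137). PBS 11 was the lowest PBS library in 18 of the 21 genes of this group and PBS 10 the highest in 15. The spindle assembly gene TPX2, at 42.9, 24.3 and 37.03 CPM with PBS and 20.4, 17.5 and 17.02 CPM with METH, and the central spindle gene PRC1, at 109, 56.7 and 74.6 CPM with PBS and 42.3, 45.7 and 40.8 CPM with METH, were lower in every METH library (log2 fold change -0.88 ± 0.25, limma adjusted p = 0.0293 and -0.85 ± 0.25, limma adjusted p = 0.0343). ASPM, HMMR, KIF14 and KIF24 had log2 fold changes from -1.42 to -1.34, and among the PBS libraries each was highest in PBS 10. KIF18A, which damps chromosome oscillations, was at 2.58, 0.979 and 1.04 CPM with PBS and 0.572, 0.704 and 1 CPM with METH, with PBS 10 alone above 2 CPM (log2 fold change -0.82 ± 0.42, limma adjusted p = 0.108).

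Of the 13 centrosome and cilium genes, with a median of -0.66, 9 were lower, CEP85L was higher, and CEP128, CEP135 and CEP152 were not called. CEP41 (ENSG00000106477, chr7:130393771-130442433), needed for tubulin glutamylation in cilia, was at 25.6, 23.2 and 20.5 CPM with PBS and 11.1, 10.01 and 14.3 CPM with METH (log2 fold change -0.97 ± 0.22, limma adjusted p = 0.0182). The pericentriolar scaffold gene CEP192 (ENSG00000101639, chr18:12991362-13125052) was at 4.07, 1.94 and 1.87 CPM with PBS and 1.42, 0.837 and 1.59 CPM with METH, and the centriole elongation gene CENPJ (ENSG00000151849, chr13:24882284-24922889) at 3.88, 1.62 and 1.9 CPM with PBS and 0.957, 1.35 and 1.39 CPM with METH. In both, PBS 10 stood well above the other libraries of its group (log2 fold change -0.93 ± 0.39, limma adjusted p = 0.0737 and -0.86 ± 0.37, limma adjusted p = 0.0789). CEP85L (ENSG00000111860, chr6:118460772-118710075), a pericentriolar gene tied to neuronal migration, went the other way, at 0.93, 1.22 and 0.601 CPM with PBS and 3.16, 1.86 and 2.35 CPM with METH. The lowest METH library was above the highest PBS library (log2 fold change 1.35 ± 0.35, limma adjusted p = 0.0243). CEP152, a centriole duplication scaffold, was at 1.72, 1.36 and 0.794 CPM with PBS and 0.584, 0.936 and 4.41 CPM with METH. METH 3 was its highest library of all 6 and METH 1 the lowest, and the log2 fold change was 0.14 ± 0.64. LIN54, a DNA-binding subunit of DREAM and MMB, was likewise highest in METH 3, at 6.43, 2.87 and 3.74 CPM with PBS and 1.82, 2.29 and 17.1 CPM with METH.

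Of the 8 kinesin genes whose products carry cargo or are not known for mitosis, 2 were lower, 1 was higher and 5 were not called (KIF26B, KIF5A, KIF1A, KIFC3 and KIF17), with a median of 0.35. KIF3C (ENSG00000084731, chr2:25926596-25982749), a kinesin-2 motor found in neurons, was at 44.6, 64.7 and 61.9 CPM with PBS and 95.6, 89.4 and 75.1 CPM with METH (log2 fold change 0.62 ± 0.22, limma adjusted p = 0.0524). The lowest METH library, METH 3, was above the highest PBS library. KIF21B (ENSG00000116852, chr1:200969390-201023700), which regulates microtubule growth in neurons and lymphocytes, was at 7.73, 5.66 and 10.5 CPM with PBS and 4.65, 5.06 and 4.64 CPM with METH (log2 fold change -0.68 ± 0.27, limma adjusted p = 0.0686). KIF6 was also called lower, at 0.695, 1.23 and 0.569 CPM with PBS and 0.607, 0.341 and 0.29 CPM with METH, with overlapping groups (limma adjusted p = 0.0911). The KIF6 call was lost whichever library was left out, and with edgeR (adjusted p = 0.1005). The axonal motor genes KIF1A and KIF5A had log2 fold changes of 0.40 ± 0.25 and 0.30 ± 0.20, with 95% intervals from -0.16 to 0.96 and from -0.16 to 0.76, and were not called. With PBS at 8.69, 10.2 and 9.81 CPM and METH at 12.1, 12.4 and 10.9 CPM, the KIF5A groups did not overlap.

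The 7 members whose names match but whose known roles lie elsewhere split, with 4 lower and 3 higher. PLK2 (ENSG00000145632, chr5:58453982-58460260) encodes a stress-induced and synaptic relative of PLK1. PLK2 was at 26.5, 18.4 and 22.6 CPM with PBS and 41.8, 46.4 and 38.5 CPM with METH, so that every METH library was above every PBS library (log2 fold change 0.92 ± 0.21, limma adjusted p = 0.0188). PLK3, another stress-response kinase gene, was at 7.55, 22.3 and 14.2 CPM with PBS and 36.2, 29.8 and 20.8 CPM with METH, with PBS 11 above METH 3 (log2 fold change 1.07 ± 0.38, limma adjusted p = 0.052). The remaining higher member is BUB1B-PAK6, a readthrough gene on chromosome 15 that overlaps BUB1B and PAK6 on the same strand. BUB1B-PAK6 was at 0.244, 0.276 and 0.118 CPM with PBS and 0.84, 0.627 and 0.467 CPM with METH (log2 fold change 1.26 ± 0.37, limma adjusted p = 0.0339). PAK6 itself was higher, at 0.578, 1.50 and 1.36 CPM with PBS and 5.38, 3.14 and 2.75 CPM with METH, while BUB1B was lower, so the readthrough gene's reads cannot be assigned to either with certainty. CDCA7 (ENSG00000144354, chr2:173354820-173368997), which helps remodel chromatin with HELLS, was at 19.3, 10.4 and 17.6 CPM with PBS and 7.13, 6.45 and 7.38 CPM with METH (log2 fold change -1.12 ± 0.27, limma adjusted p = 0.0216). CDCA4 (ENSG00000170779, chr14:105009573-105021148), a cell cycle gene of the SERTA family, was at 18.2, 22.4 and 28.7 CPM with PBS and 12.97, 12.2 and 8.81 CPM with METH (log2 fold change -1.01 ± 0.25, limma adjusted p = 0.0224). Both had non-overlapping groups. CDCA7L (ENSG00000164649, chr7:21900900-21946084), a relative of CDCA7 that binds MYC, and CCNA1, a germ-cell cyclin, had log2 fold changes of -0.73 ± 0.30 and -0.64 ± 0.27 and were called lower.

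**Figure D4:**
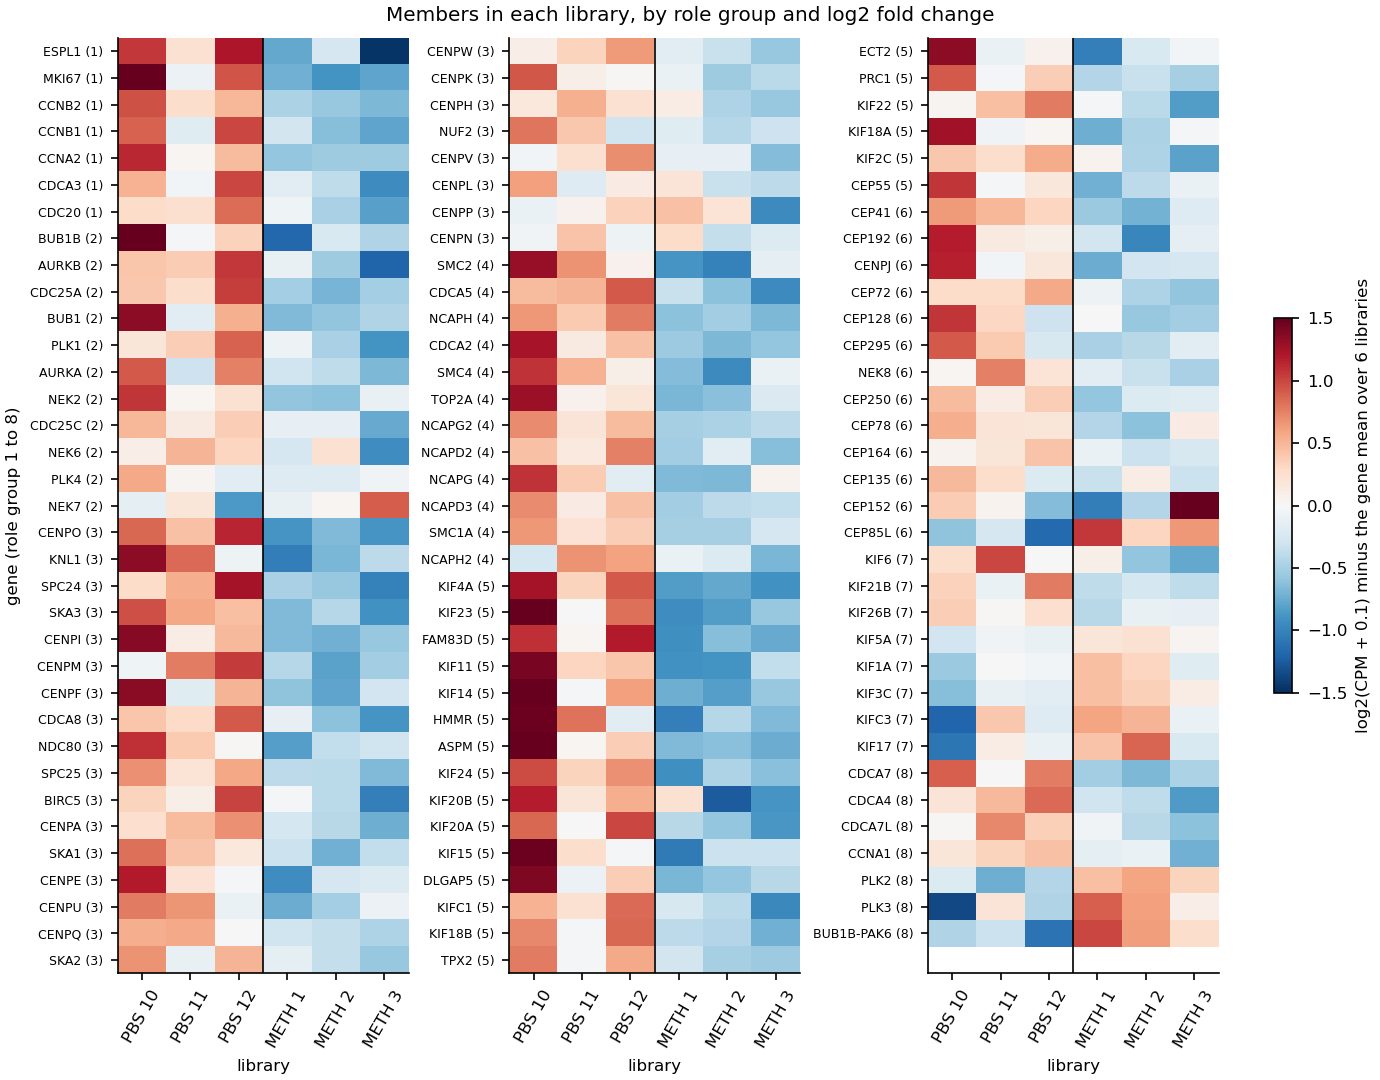
All 104 members in each library as log2(CPM + 0.1) minus the mean of the gene over the 6 libraries, red above and blue below, ordered by log2 fold change within role groups 1 to 8 (1 cyclins and anaphase, 2 kinases and checkpoint, 3 kinetochore, 4 condensin and cohesin, 5 mitotic kinesins and spindle, 6 centrosome, 7 non-mitotic kinesins, 8 other roles). PBS 10 was the highest PBS library in 57 of the 104 members, and CEP152 was highest in METH 3. The METH columns are blue in most genes, with the higher members at the foot of groups 6 to 8.

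Some members share genomic sequence with a neighbour on the other strand that is also in the table, and whether the counting used strand is not given in the sources used here. Among them, CENPO overlaps ADCY3, KIF20A overlaps BRD8, CEP72 overlaps TPPP, KIF24 overlaps UBAP1 and CEP164 overlaps BACE1. Of these neighbours, UBAP1 and TPPP were called higher while their partners KIF24 and CEP72 were called lower. For these genes the reads of the 2 strands cannot be told apart here.

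Mitosis genes outside the name rule were taken from a list. Of its 114 genes of the spindle, centrosome, kinetochore, cytokinesis and anaphase-promoting complex, 63 were in the table, and 43 were lower, 3 higher and 17 not called, with a median of -0.79, where 35.8% of the table was lower and 33.3% higher with a median of 0.11. With adjustment over all tested genes, 13 of the 63 were lower and none was higher, where 7.49% of the table was lower and 7.71% higher. SHCBP1, a midbody protein, was at 6.32, 4.34 and 4.69 CPM with PBS and 1.16, 1.67 and 1.86 CPM with METH, a log2 fold change of -1.66 ± 0.29. STIL, a centriole duplication factor, had -1.32 ± 0.34 and PKMYT1, a kinase that restrains CDK1, had -1.23 ± 0.27. CDC26 and ANAPC10, both subunits of the anaphase-promoting complex, and NDEL1, a dynein regulator, were the 3 that were higher. CDC26 was at 34.0, 32.2 and 23.6 CPM with PBS and 51.5, 51.0 and 47.1 CPM with METH, a log2 fold change of 0.75 ± 0.21.

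Of 43 listed genes that regulate the transcription of cell cycle genes, 19 were in the table, and 12 were lower, 3 higher and 4 not called, with a median of -0.77, against the same 35.8% and 33.3% of the table. When the adjustment covered all tested genes, 5 of the 19 were lower and none was higher, where 7.49% of the table was lower and 7.71% higher. MYC, a transcription factor of growth, was at 54.8, 18.8 and 54.3 CPM with PBS and 9.58, 10.4 and 16.4 CPM with METH. The MYC groups did not overlap, although PBS 11 lay within 3 CPM of METH 3, and the log2 fold change was -1.69 ± 0.41. E2F2, an activator of S-phase genes, and E2F8, a repressor of the same family, had -1.62 ± 0.29 and -1.54 ± 0.28. E2F1 was lower at -0.92 ± 0.28. MYBL2, the MYB subunit of MMB, was lower at -0.78 ± 0.31 with overlapping groups. CDKN1A, which encodes the CDK inhibitor p21, was higher, at 162, 428 and 274 CPM with PBS and 596, 510 and 561 CPM with METH (log2 fold change 1.06 ± 0.34, limma adjusted p = 0.0411). CDKN1B, which encodes the inhibitor p27, had 0.56 ± 0.21 and was higher too. LIN37, a subunit of DREAM and MMB, was also called higher, with overlapping groups, at 9.43, 26.6 and 17.9 CPM with PBS and 37.1, 27.7 and 22.7 CPM with METH (log2 fold change 0.79 ± 0.36, limma adjusted p = 0.0900).

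Values of other marker lists are given here because some moved with the groups, and their part in the result was not tested. Of 9 growth arrest genes, 6 were in the table and 4 were higher, where 33.3% of the table was, among them BTG2 and GADD45A at 1.69 ± 0.27 and 1.27 ± 0.31, while GADD45G was lower and CDKN1C was not called. The others that were higher, CDKN1A and CDKN1B, are also counted among the regulators above, as is CDKN1C. The summed level of the 6 growth arrest genes was 300 to 796 CPM with PBS, highest in PBS 11. It was 779 to 923 CPM with METH, so that the sums overlapped. Of 8 mesenchymal or Schwann-like markers, 4 were in the table, with VIM, SNAI2 and FOSL1 higher, as 33.3% of the table was, and NOTCH2 not called, and their sum was 277 to 483 CPM with PBS and 547 to 814 CPM with METH. GATA2, a transcription factor gene of the noradrenergic lineage, was present in every library, at 401.4, 415.1 and 506.5 CPM with PBS and 264.2, 279.8 and 266.6 CPM with METH, and was called lower. RNA from the mitochondrial genome, taken here as a sign of RNA quality or dying cells, was lower in 11 of the 15 MT- genes of the table, where 35.8% of all its genes were. MT-RNR2, a mitochondrial ribosomal RNA, was not called, with every METH library above every PBS library, at 7698, 8247 and 7093 CPM with PBS and 10900, 12900 and 9707 CPM with METH (log2 fold change 0.53 ± 0.41). The summed level of all 15 was 113000, 61590 and 97690 CPM with PBS and 41570, 54450 and 42420 CPM with METH. The sum over the 104 members was 2380, 2018 and 2568 CPM with PBS and 1593, 1453 and 1243 CPM with METH. For members and MT- genes alike the groups did not overlap in the sum. With adjustment over all tested genes, 2 growth arrest genes were higher, where 7.71% of the table was. Under it 5 MT- genes were lower, where 7.49% of the table was, and neither GATA2 nor any of the mesenchymal or Schwann-like markers was called.

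The libraries of a group also differed among themselves. Relative to the PBS mean, the median over the members was 0.24 in PBS 10, -0.21 in PBS 11 and 0.02 in PBS 12 on the log2 scale, and it was -0.84, -0.89 and -0.97 in METH 1, METH 2 and METH 3. PBS 10 was the highest PBS library in 57 of the 104 members and PBS 11 the lowest in 53. The difference between PBS 10 and PBS 12 followed the GC content of the longest coding transcript, with Spearman's rho of -0.81 over the 104 members and -0.73 over the 3515 genes of the table with a value. The difference between METH 3 and METH 1 had a rho of -0.60 with GC content over the members, and the METH minus PBS difference had one of 0.16. These correlations are across genes of the same libraries, which are not independent, and are given as a description. With a fit corrected for GC content, added after the data had been seen, 85 members were lower, 81 of them as before, and 10 were higher, and all 104 kept their sign. Under that fit 39.4% of the 3515 genes were lower and 45.5% higher. The median log2 fold change was -0.88 in the 52 members with transcripts of 3581 to 15703 bases. It was -0.93 in the 52 with 750 to 3576 bases. The same split was not made over the table. Without PBS 10 and METH 3 together, 69 members were lower and 7 were higher, where 32.3% of the table was lower and 34.9% higher.

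**Figure D5:**
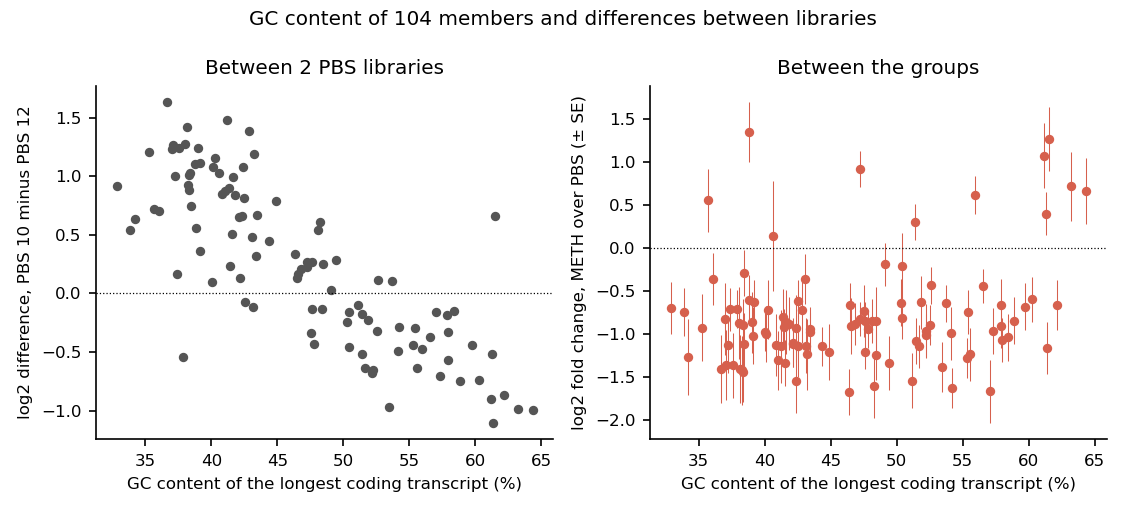
Each point is a member, placed by the GC content of its longest coding transcript in percent. The left panel gives the log2 difference between PBS 10 and PBS 12, which declines with GC content (rho -0.81), and the right panel the log2 fold change of METH over PBS ± SE, which shows little slope (rho 0.16).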

How the data were processed

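RNA-seq of 3 PBS and 3 METH libraries of SH-SY5Y cells was deposited as a table of 4101 genes, all marked significant by the authors. Aligner, counter, genome build and strandedness are not given in the sources used here. The deposited columns are headed Fpkm, but all values above 0 and under 1 (488 to 600 per library, 100.0% of them) lie within 0.00051 of a whole multiple of 1 step per column, so they were read as CPM, normalized by the authors to the total reads of each library, and 20027076 to 25449501 reads per library fell on the table's genes. The deposited p-value columns served only to find what the table was selected on and how many genes were tested; the deposited ratio (fold change) and log2 fold change columns, which hold the authors' own comparison of METH with PBS, were not used.

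Values were transformed as log2(CPM + 0.1) and METH was compared with PBS with limma 3.58.1 under R 4.3.3 (a linear fit with moderated variances that follow the mean), adjusted by Benjamini-Hochberg over the table and called at 0.1. Reads recovered from the steps were tested with edgeR 4.0.16, which called 84 members lower and 5 higher, and DESeq2 1.42.0, which called 85 and 5. Of the table, edgeR called 36.1% lower and 30.4% higher, and DESeq2 37.4% and 32.7%. The fits were also tested on simulated data, and the outcome is not reported here. Other alternatives were pseudocounts of 1 and 0.01, a minimum mean of 1 CPM, rescaled libraries, no trend, a threshold of 0.05, adjustment over all tested genes and leaving out each library. Positions are from GENCODE 29 (GRCh38) by Ensembl ID, and promoters from RefSeq on GRCh38.p14 by symbol. Counting error was not given separately because the spread between libraries contains it.

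The members, gene lists and tests were chosen with earlier results of these data known. The genes described in full were a list of 19 well known mitosis genes, and in each role group up to 3 called genes in each direction with the largest change, among genes that reached 1 CPM in the mean of either group and whose groups did not overlap. Every member not called was named, and from the other mitosis genes up to 3 in each direction. Other genes were named after their values were seen. Some genes of the marker lists and some overlapping neighbours are not reported here.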

Additional observations from a re-analysis of the deposited data

How the results depend on the processing

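Of the 104 members, 80 to 85 were called lower and 4 or 5 higher under pseudocounts of 1 and 0.01, a minimum mean of 1 CPM, rescaled libraries, limma without a trend, edgeR and DESeq2. Under the same fits 33.8% to 38.4% of the table's genes tested were lower and 29.8% to 33.7% higher. The 38 members described in full kept their direction under every alternative run. Rescaling moved the median log2 fold change of the table from 0.11 to 0.08. At an adjusted p of 0.05, 59 members were lower and 3 higher, with 783 genes of the table lower and 696 higher. With adjustment over all 15724 tested genes, 29 members were lower and 2 higher, with 307 genes of the table lower and 316 higher. Then 18 of the 38 members were no longer called. These were AURKA, BIRC5, BUB1, BUB1B, CCNB1, CDC20, CDCA7L, CENPE, CENPF, CENPJ, CEP192, KIF21B, KIF3C, KNL1, NDC80, PLK1, SMC2 and TOP2A. The correction for transcript GC content, added after the data had been seen, gave 10 members higher, where 45.5% of the 3515 genes were higher. When each library was left out in turn, members lower ranged from 44 (without METH 2) to 77 (without PBS 11) and members higher from 2 to 8, while genes of the table ranged from 563 to 1368 lower and from 412 to 1551 higher. Without METH 1, 53 members were lower and 2 higher, without METH 2 44 and 3, and without METH 3 69 and 8. A fit without a library has fewer degrees of freedom, and no further cause was tested. Of the 38 members, 12 were no longer called without METH 1 and 13 without METH 2. No paired analysis was possible because the PBS columns bear numbers (10, 11 and 12) that no METH column shares. At 3 against 3 libraries, an exact permutation p for any given member is at least 0.1. Members outside the table have no value, so nothing is known here of those that did not change.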

Other observations

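The antisense genes that the name rule left out were measured in the same table. KIF9-AS1, antisense to the kinesin gene KIF9, was at 0.361, 0.518 and 0.483 CPM with PBS and 0.805, 1.23 and 0.888 CPM with METH, and was called higher (log2 fold change 0.95 ± 0.32, limma adjusted p = 0.0469). CEP83-AS1, antisense to the centriole gene CEP83, was at 0.415, 0.230 and 0.451 CPM with PBS and 0, 0.110 and 0.065 CPM with METH, and was called lower (log2 fold change -1.58 ± 0.42, limma adjusted p = 0.0262). KIF9 and CEP83 themselves have no value here.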
